A study of Mus musculus with 4 samples.

Results

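Promoter peaks of the mouse Zfp genes were described in LβT2b cells, as the titles and the growth protocol call them, while the cell line label reads LbT2. LβT2 is a mouse line derived from pituitary gonadotropes, the cells that secrete the gonadotropins. A Zfp promoter peak was a called peak whose gene name, in the authors' annotation, was Zfp followed by digits and whose annotated feature was a promoter. By this rule 795 of the 417506 peaks in the 4 peak lists were Zfp promoter peaks, and they belonged to 233 genes. Open chromatin was mapped with ATAC-seq, which relies on a transposase that cuts and tags accessible DNA. There were 2 vehicle libraries and 2 libraries treated with activin A at 1 nM, a ligand of the TGFβ family. All cells were kept overnight without serum before the 6 h treatment, so serum withdrawal was common to both groups. All libraries came from this single line, and nothing in the labels says whether the libraries of a group came from separate cultures. The p-values therefore measure only the spread between these libraries, which may be technical.

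Most Zfp genes encode proteins with tandem C2H2 zinc fingers, in which pairs of cysteines and histidines hold a zinc ion and each finger contacts a few bases of DNA. Many also carry a KRAB domain, which recruits the co-repressor TRIM28 and, through it, histone methylation and heterochromatin protein. KRAB zinc finger genes arose by repeated local duplication, stand in clusters along the chromosomes, and are known for silencing retroelements and keeping imprints. A smaller number of Zfp genes encode general activators or repressors, and a few encode proteins of another finger class.

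The start windows of 5 Zfp genes are shown because these promoters stood at the extremes of read density or of unadjusted p. Zfp174 (chr16:3846973-3847272, plus strand) and Zfp143 (chr7:110061461-110061760, plus strand) had the second and the third highest densities. Zfp281 (chr1:136624651-136624950, plus strand) was among the promoters with the smallest p on the side of higher density with activin. Zfp946 (chr17:22423952-22424251, plus strand) and Zfp11 (chr5:129670039-129670338, minus strand) had the smallest p on the side of lower density. Zfp574 and Zfp51 belong to the same groups. Each sequence is the RefSeq window, assembly GRCm38.p6, from 250 bases before to 50 bases after an annotated start, 5′ to 3′ on the gene's strand. Capitals mark matches, on either strand, to the motifs searched.
Zfp174: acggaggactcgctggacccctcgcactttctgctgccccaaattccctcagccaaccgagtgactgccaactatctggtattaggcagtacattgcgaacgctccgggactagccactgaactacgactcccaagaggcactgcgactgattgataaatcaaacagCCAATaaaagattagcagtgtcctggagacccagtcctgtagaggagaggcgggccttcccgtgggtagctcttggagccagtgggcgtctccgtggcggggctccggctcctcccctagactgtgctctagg
Zfp143: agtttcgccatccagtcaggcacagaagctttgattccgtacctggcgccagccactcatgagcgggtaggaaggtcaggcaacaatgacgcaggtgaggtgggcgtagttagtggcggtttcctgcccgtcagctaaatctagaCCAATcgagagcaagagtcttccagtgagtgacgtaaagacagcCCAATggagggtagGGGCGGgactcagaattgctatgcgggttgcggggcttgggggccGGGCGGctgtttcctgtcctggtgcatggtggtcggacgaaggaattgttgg
Zfp281: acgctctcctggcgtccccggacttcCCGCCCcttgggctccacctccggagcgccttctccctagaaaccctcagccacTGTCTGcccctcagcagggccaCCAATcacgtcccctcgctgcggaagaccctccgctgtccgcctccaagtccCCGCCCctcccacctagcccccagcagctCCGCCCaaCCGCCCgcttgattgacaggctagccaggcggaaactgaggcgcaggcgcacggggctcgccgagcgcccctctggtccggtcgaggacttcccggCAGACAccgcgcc
Zfp946: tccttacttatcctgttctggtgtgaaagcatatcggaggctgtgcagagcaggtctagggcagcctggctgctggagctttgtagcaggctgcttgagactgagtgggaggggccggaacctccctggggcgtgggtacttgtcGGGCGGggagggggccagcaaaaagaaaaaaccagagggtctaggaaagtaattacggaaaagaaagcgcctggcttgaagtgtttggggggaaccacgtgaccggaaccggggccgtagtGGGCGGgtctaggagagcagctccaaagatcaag
Zfp11: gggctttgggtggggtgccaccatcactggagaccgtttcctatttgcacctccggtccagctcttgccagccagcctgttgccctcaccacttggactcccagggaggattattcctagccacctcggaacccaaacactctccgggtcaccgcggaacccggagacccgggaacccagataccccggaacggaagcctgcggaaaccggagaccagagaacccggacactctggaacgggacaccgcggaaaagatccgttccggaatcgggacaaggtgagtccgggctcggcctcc
The Zfp174 window held 1 match to CCAAT, the NF-Y core. In the Zfp143 window there were 2 matches to CCAAT and 2 to GGGCGG, the SP/KLF core, and the Zfp281 window held 4 matches to GGGCGG, 1 to CCAAT and 2 to CAGACA, a SMAD motif. The Zfp946 window had GGGCGG alone, at 2 places, and the Zfp11 window held none of the motifs.

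High-quality autosomal reads numbered between 172146474 and 224226184 per library, with 70692 to 178358 peaks, of which 10402 to 13398 were promoter peaks. Vehicle library 2 had the longest list. The enrichment of reads around gene starts was 2.72 and 2.48 in the vehicle pair against 3.12 and 3.04 in the activin pair, so it was higher in both activin libraries. Of 8 gonadotrope markers, 4 (Cga, Lhb, Gnrhr and Egr1), or 50%, had a promoter peak in all 4 libraries. This stands beside 24.3% of the 21900 RefSeq protein-coding symbols. Foxl2 and Pitx1 had one in 3 libraries, Nr5a1 in activin library 1 alone, and Fshb in none. Of 6 markers of other pituitary lineages none had a promoter peak in all 4 libraries, 3 (Gh, Pomc and Tbx19) had one in 1 or 2 libraries, and Prl, Tshb and Pou1f1 had none.

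With all called peaks counted, Zfp promoters were called at nearly the same number of genes with and without activin. A Zfp promoter peak was present at 195 and 187 genes in vehicle libraries 1 and 2, and at 189 and 195 genes in activin libraries 1 and 2. The means were 191 ± 5.66 and 192 ± 4.24 genes (SD, n = 2 each), and the groups overlapped (exact permutation test, 2-sided, p = 1). With 2 libraries against 2 the smallest p this test can give is 0.333, so no single-value comparison here can pass 0.05. The difference of 1 gene became -3 without vehicle library 2 and -2 without activin library 2. It was 12 genes when only peaks with a −log10 q (the authors' measure of peak strength, described below) of at least 2 were counted. With equal numbers of peaks per library it was 7.5, so the near equality depended on the weakest peaks. The peaks themselves numbered 202, 198, 196 and 199. In these lists 10 to 15 of them lay over the promoter of a gene other than the named one, and 31 to 38 had their centre over 1 kb from the start to which the distance was given. As a share of all promoter peaks they made up 1.87% and 1.48% in the vehicle pair against 1.78% and 1.91% in the activin pair, with vehicle library 2 the lowest and the groups overlapping (exact permutation test, 2-sided, p = 0.667). Without vehicle library 2, which had the longest list, the difference between groups was -0.0238 percentage points, against 0.172 with all libraries.

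Most Zfp promoters were called throughout. Of the 233 genes, 149 (63.9%) had a promoter peak in all 4 libraries, 26 in 3, 34 in 2 and 24 in 1. Over all 15603 genes with a promoter peak in any library, 44.9% had one in all 4. A promoter peak in both activin libraries and in neither vehicle library occurred at 9 Zfp genes, which is 3.86% of them, beside 1.98% of all genes. The reverse occurred at 8 Zfp genes, or 3.43%, beside 3.65% of all genes. The first number rose to between 14 and 18 when any single library was left out, and the second to between 10 and 17, since fewer libraries then had to meet the criterion.

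The presence differences came mostly with a change of label at a site where a peak was still called. In 166 cases a gene with a promoter peak in some library lacked one in another. In 103 of these a called peak of that library lay over the same site with another label, which was intron in 52 cases, exon in 50 and intergenic in 1. That is 62.0% of the cases, beside 24.4% of the 20030 such cases over all genes with a promoter peak. In 22 the promoter peak over the site was given to another gene, and in 41 no peak was called there. The annotation goes by the centre of the peak, so a peak whose ends shift can pass from promoter to exon. At 213 genes (91.4%) some peak was called over the site in all 4 libraries, beside 64.2% of all genes.

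The 9 genes with the promoter label in the activin pair alone were Zfp239, Zfp27, Zfp3, Zfp300, Zfp608, Zfp612, Zfp622, Zfp697 and Zfp799. The strongest was Zfp622, which encodes a factor of ribosome maturation. Its promoter peaks had a −log10 q, the authors' measure of how far a peak stands above its background, of 29.3 and 22.1 in the activin libraries. In the vehicle libraries the peaks at that site were labelled exon, with a −log10 q of 18.6 and 14.7. The site was thus called in every library, with higher values in both activin libraries. At Zfp3 the activin promoter peaks had a −log10 q of 22.2 and 12.7 and the vehicle exon peaks 13.4 and 15.9, so the groups overlapped. At Zfp612 the values were 11.7 and 8.55 with activin, and 4.46 and 3.63 at the vehicle exon peaks, with no overlap. At Zfp239, Zfp27 and the X-linked Zfp300 neither vehicle library had a called peak over the site of the activin promoter peaks. Those activin peaks were weak, with a −log10 q between 1.35 and 2.68 for the strongest of each library. The RefSeq start windows of Zfp27 were nonetheless covered by called peaks in all 4 libraries. Zfp608 had activin peaks of 2.18 and 1.84, an intron peak of 2.01 in vehicle library 1, and no called peak in vehicle library 2.

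The 8 genes with the label in the vehicle pair alone were Zfp330, Zfp507, Zfp59, Zfp651, Zfp658, Zfp872, Zfp931 and Zfp938. At Zfp59 and Zfp872 neither activin library had a called peak over the site of the vehicle promoter peaks. The RefSeq start window of Zfp59 was nonetheless covered by a called peak in all 4 libraries, and that of Zfp872 in none. Their vehicle peaks were near the lower limit of the lists, with a −log10 q of 1.33 and 1.36 at Zfp59 and 1.41 and 1.67 at Zfp872. At Zfp651 the activin peaks, at 7.13 and 8.49, were promoter peaks given to the neighbouring gene E530011L22Rik, and were higher than the vehicle peaks of 4.34 and 3.31. Zfp931 had 10.7 and 14.7 in the vehicle libraries, and its activin peaks, labelled intron, had 18.02 and 10.73. Zfp938 had 8.58 and 5.12 with vehicle and 13.3 and 10.5 at the intron-labelled activin peaks. At 6 of the 8 genes, then, the site was called in all 4 libraries.

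Neighbouring Zfp genes also passed peaks to each other. Zfp942 and Zfp943, which lie side by side on chromosome 17, held the promoter label in turn: Zfp942 in vehicle library 1 and activin library 2, Zfp943 in the other two. At Zfp617 and Zfp882 on chromosome 8 the single region was given to Zfp882 in 3 libraries and to Zfp617 in activin library 2. The number of Zfp genes with a promoter peak thus depends in part on which of 2 nearby starts lies closest to the peak centre.

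Zfp promoter peaks had higher −log10 q values in both activin libraries, and so did promoter peaks in general. The median −log10 q of the Zfp promoter peaks was 8.87 and 8.48 in vehicle libraries 1 and 2, and 18.6 and 13.2 in activin libraries 1 and 2. The groups did not overlap; the means were 8.68 ± 0.272 and 15.9 ± 3.86 (SD, n = 2 each; exact permutation test, 2-sided, p = 0.333). The median over all promoter peaks was 7.63, 4.38, 13.0 and 10.7 in the same order, so it too was higher in both activin libraries. The median Zfp promoter peak stood at percentile 55.3, 66.0, 63.1 and 57.8 of its own library's promoter peaks, and on this scale the groups overlapped. The median fold over background, also the authors' value, was 3.73, 3.30, 4.33 and 4.22, and the median peak length 664, 695, 801.5 and 717 bp, both higher in both activin libraries. The difference of 7.23 in the median −log10 q fell to 4.50 without activin library 1, the library with most high-quality reads. Enrichment around gene starts was likewise higher in both activin libraries, and its part in the difference was not tested.

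**Figure D1:**
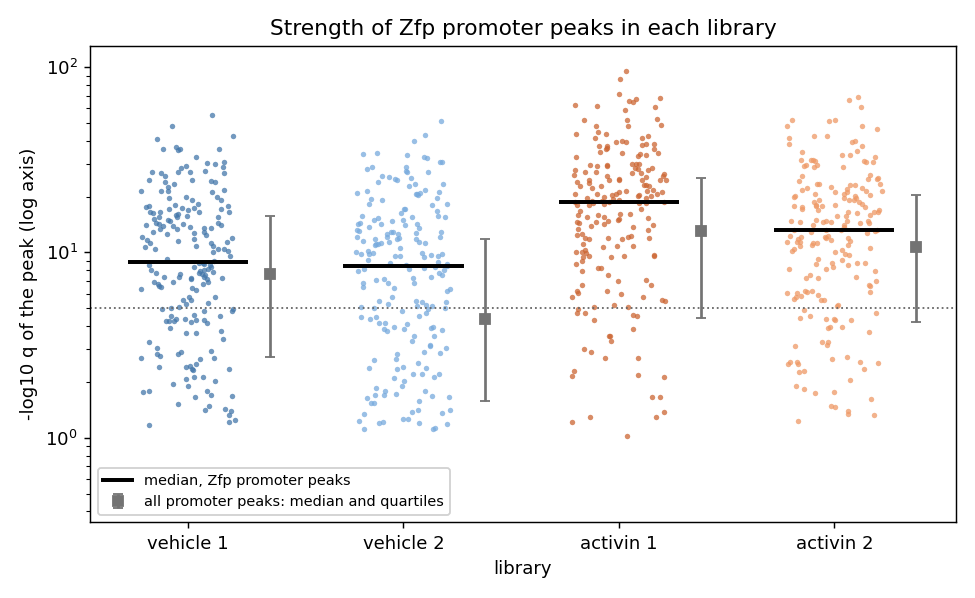
Each point is a Zfp promoter peak, placed by its −log10 q on a log axis, in each of the 4 libraries. Black bars are the Zfp medians (8.87, 8.48, 18.6 and 13.2), grey squares with bars the median and quartiles over all promoter peaks of the library, and the dotted line a −log10 q of 5; both medians are higher in the activin libraries.

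A −log10 q of at least 5 was called strong. Strong promoter peaks were present at 142 and 128 Zfp genes in the vehicle libraries and at 168 and 158 in the activin libraries. The activin libraries were both higher, by 28 genes on average (135 ± 9.90 and 163 ± 7.07, SD, n = 2 each; exact permutation test, 2-sided, p = 0.333). Strong peaks made up 70.8%, 65.2%, 87.2% and 80.4% of Zfp promoter peaks, beside 62.2%, 47.1%, 73.1% and 71.7% of all promoter peaks. Of 193 Zfp genes with a strong promoter peak in any library, 112 (58.0%) had it in all 4, beside 54.9% of all such genes. A strong promoter peak in the activin pair alone was found at 13 Zfp genes (6.74%), beside 6.98% of all genes. In the vehicle pair alone it was found at Zfp931 and Zfp938, which is 1.04%, beside 1.42% of all genes. These counts too depend on the label. At Zfp3, Zfp622 and Zfp799 both vehicle libraries had a strong peak at the site, labelled exon or intron. At Zfp931 and Zfp938 both activin libraries had a strong peak labelled intron. Among the 149 genes called in every library, −log10 q was higher in both activin libraries at 112 (75.2%), beside 75% of all 7003 such genes. It was lower in both at Zfp11 alone, or 0.671%, beside 0.8% of all genes. The shares of Zfp promoters with higher and with lower values were therefore near those over all promoters.

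Of the 13 genes, 7 had a weaker promoter peak in both vehicle libraries. Zfp825 had a −log10 q of 2.65 and 2.83 in the vehicle pair against 8.66 and 8.64 in the activin pair, so the activin values were higher and close together. Zfp768 had 4.83 and 4.10 in the vehicle pair against 9.01 and 10.5 in the activin pair. Zfp467 lay at the threshold, with 4.28 and 4.99 against 6.02 and 5.73.

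The strongest Zfp promoter peak in every library was that of Zfp174, which encodes a SCAN-domain zinc finger protein. Its −log10 q was 55.4 and 51.0 in the vehicle pair against 95.2 and 69.0 in the activin pair. By mean rank over the libraries it was followed by Zfp574 (48.0, 43.0, 86.4 and 66.5), Zfp788, Zfp959, Zfp511, Zfp142, Zfp143 and Zfp446. Zfp446 had 35.8 and 34.5 in the vehicle pair against 52.0 and 40.1 in the activin pair. All 8 had no overlap between the groups, with the activin values higher. The same order held at 75% of all 7003 genes with a promoter peak in all 4 libraries, so it is not particular to these 8.

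Read density gave a measure that could be centred between libraries. It is printed as the number of high-quality reads in a peak, per kb of its length and per 1000000 such reads of the library. The 795 peaks fell into 250 merged regions. Of these 4 were on the X chromosome, for which the quality reports give no read numbers, 34 were not called in all libraries, 4 held more than 1 peak of a library, and 41 had a common part under 50% of their union. The remaining 167 regions were compared among 13871 regions of the same kind, so promoters called in some libraries alone are not in this comparison. At these regions the density varied widely between genes, with a mean over libraries of 1.63 at the 10th percentile, 3.13 at the median and 5.27 at the 90th. Positions of regions span the authors' peaks of all 4 libraries, on GRCm38 (mm10).

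No Zfp promoter region was called as changed in density with activin. None of the 167 passed an adjusted p of 0.05 (limma, Benjamini-Hochberg over all 13871 regions), as none of all regions did, or 0%. At an unadjusted p under 0.05, 8 were higher (4.79%) and 6 lower (3.59%), beside 3.62% and 5.91% of all regions. The median log2 change was 0.03, with quartiles of -0.07 and 0.12. Over the 5697 regions labelled promoter in all 4 libraries it was also 0.03, with quartiles of -0.07 and 0.13. Both activin libraries were above both vehicle libraries at 41 Zfp regions (24.6%) and below at 20 (12.0%), beside 20.9% and 20.5% of all regions and 26.01% and 14.97% of the promoter regions. These values are relative to the median of all shared regions. Scaled instead to all high-quality reads, that median itself was 0.27 higher with activin. On that scale the Zfp median was 0.30, and 8 Zfp regions passed, or 4.79%, all of them higher, beside 4.36% of all regions. Under that scaling, before adjustment, p was under 0.05 for 63 Zfp regions with a positive change and 0 with a negative one.

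**Figure D2:**
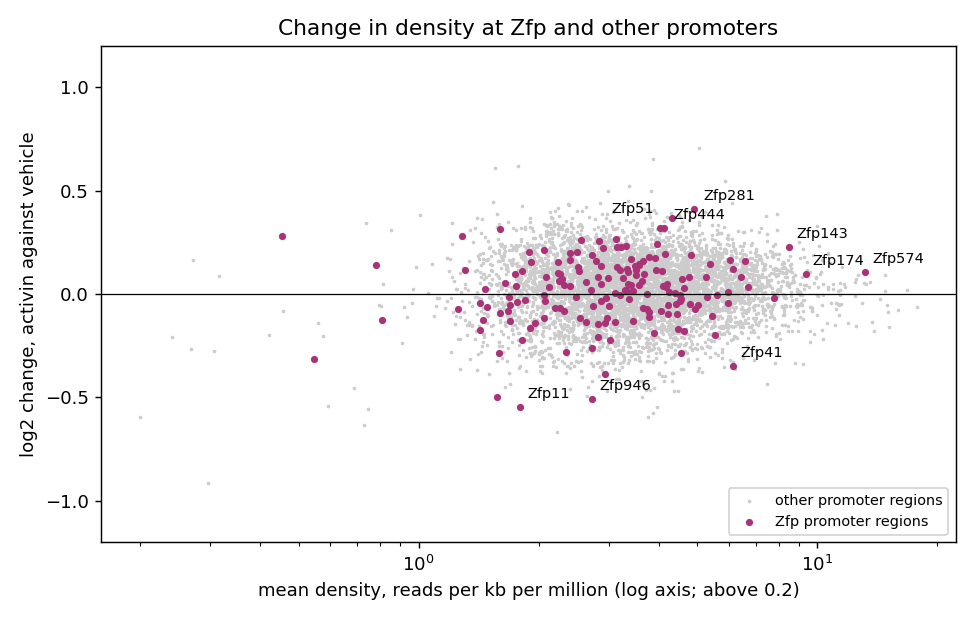
Each point is a promoter region, with its mean density over the 4 libraries on a log axis and its log2 change, activin against vehicle, after median centring. The 167 Zfp regions, less Zfp97 whose density is under 0.2, lie among the other promoter regions (those under 0.2 are not drawn either), and their median change is 0.03.

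Zfp51, on chromosome 17 (chr17:21449813-21450671), had the smallest p on the higher side. Its peaks held 484 and 575 high-quality reads in the vehicle pair against 1083 and 717 in the activin pair. The density was 3.53 and 3.23 in the vehicle pair against 5.62 and 4.94 in the activin pair, so both activin values were above both vehicle values. The −log10 q followed the same order, at 21.4, 20.3, 67.3 and 46.5. After centring, the log2 change was 0.37 ± 0.10 (limma with its SE, adjusted p = 0.405, n = 2 each).

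Zfp281, which encodes a regulator of stem cell pluripotency, had densities of 4.56 and 3.06 in the vehicle pair against 6.15 and 5.86 in the activin pair (chr1:136624265-136625924). The groups did not overlap, and the log2 change was 0.41 ± 0.13 (limma with its SE, adjusted p = 0.429). It was 0.21 without vehicle library 2 and 0.61 without vehicle library 1. The peak of vehicle library 2 was the longest, at 1589 bp against 1021 to 1074 bp in the others, and without division by length the change was -0.02. Zfp444 (chr7:6171485-6172946) had 3.51 and 3.06 in the vehicle pair against 5.46 and 4.49 in the activin pair, a log2 change of 0.32, and -0.09 without division by length. Zfp599 (chr9:22259396-22260246) had 3.20 and 3.22 in the vehicle pair against 4.801 and 4.887 in the activin pair, also a log2 change of 0.32, and -0.08 without division by length. The direction at these 3 promoters thus turned when length was left out. Zfp622 (chr15:25983803-25985260) had 2.77 and 2.34 in the vehicle pair against 3.89 and 3.53 in the activin pair, with a log2 change of 0.27 (limma, adjusted p = 0.498), and 0.037 without division by length.

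On the lower side Zfp946, in the same chromosome 17 cluster as Zfp51, had densities of 3.14 and 2.74 in the vehicle pair against 2.76 and 2.25 in the activin pair (chr17:22423637-22424478). These overlapped before centring, and after it both activin values were lower, with a log2 change of -0.51 ± 0.12 (limma with its SE, adjusted p = 0.405). The reads themselves were more numerous with activin, at 452 and 337 against 268 and 290, over longer peaks of 730 and 841 bp against 496 and 479 bp. Without division by length the change at Zfp946 was 0.03.

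Zfp11 (chr5:129669842-129670288) had densities of 2.01 and 1.92 in the vehicle pair against 1.63 and 1.62 in the activin pair. Both activin values were lower before and after centring, with a log2 change of -0.54 ± 0.14 (limma with its SE, adjusted p = 0.405). It was a weak peak, with a −log10 q of 2.81, 5.38, 2.70 and 1.76, and it held 91 to 159 reads. Without division by length the change stayed on the same side at -0.75. Zfp41 (chr15:75615809-75617024) had 7.09 and 5.55 in the vehicle pair against 5.69 and 6.23 in the activin pair, which overlapped before centring, and a log2 change of -0.35, or -0.0098 without division by length. Zfp952 (chr17:32992803-32993843) had 1.87 and 1.52 in the vehicle pair against 1.51 and 1.38 in the activin pair, and a log2 change of -0.50, or -0.026 without division by length. Zfp536 (chr7:37769743-37770972), which encodes a repressor of neuronal differentiation, had 5.02, 4.13, 4.79 and 4.26 in the same order, a log2 change of -0.29, and 0.28 without division by length.

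**Figure D3:**
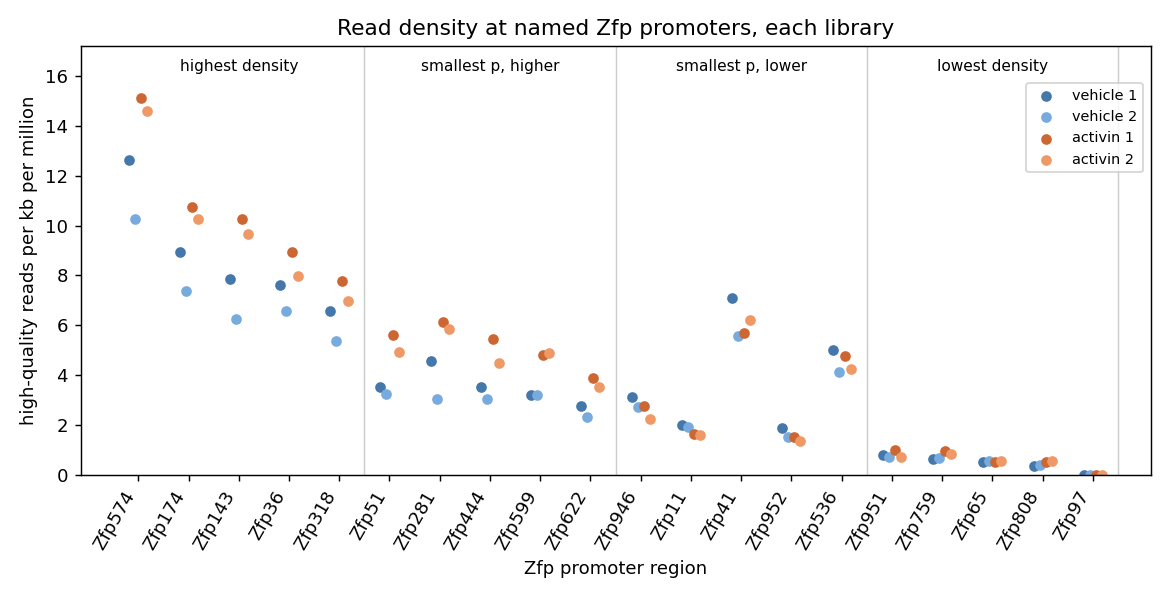
Density, in high-quality reads per kb per 1000000 reads, at the 5 Zfp promoter regions with the highest density, the 5 with the smallest p in each direction, and the 5 with the lowest density; each point is a library. Zfp574 is highest, at 10.3 to 15.1, and Zfp97 lies at or near 0.

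The densest Zfp promoter was Zfp574 (chr7:25076838-25077677), with 12.6 and 10.3 in the vehicle pair against 15.1 and 14.6 in the activin pair. It was followed by Zfp174, with 8.95, 7.40, 10.8 and 10.3. Zfp143, which encodes an activator of many housekeeping promoters and of small nuclear RNA genes, had 7.87 and 6.26 in the vehicle pair against 10.2 and 9.66 in the activin pair. Before centring both activin libraries were higher at all 3. On that scale, per high-quality read, the median log2 change of all shared regions was 0.27. After centring the log2 changes at the 3 promoters were 0.11, 0.10 and 0.23, none of which passed the test (limma, adjusted p = 0.783, 0.776 and 0.524). Without vehicle library 2 they were 0.046, 0.047 and 0.15, and without vehicle library 1 they were 0.17, 0.15 and 0.31. The next was Zfp36, with 7.60, 6.56, 8.95 and 7.96. Zfp36 encodes tristetraprolin, whose fingers are of the CCCH class and bind AU-rich elements of mRNA, so it is a Zfp gene by name and not a C2H2 gene. Its log2 change was -0.02 (limma, adjusted p = 0.973).

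At the other end, Zfp97 (chr17:17120907-17121819) had strong peaks but hardly any high-quality reads. Its −log10 q was 29.3 and 20.6 in the vehicle pair against 62.1 and 41.5 in the activin pair, while the peaks held 1 and 0 high-quality reads in the vehicle pair against 0 and 0 in the activin pair. Its fitted log2 change of -0.83 rests on the pseudocount and is no measure of change. Of the 30-base stretches in its start window, 97.0% also stood elsewhere among the start windows. Zfp640 was alike, with a −log10 q of 4.97, 4.55 and 4.87 in vehicle libraries 1 and 2 and activin library 2, and 0, 4 and 0 reads in those peaks, and a share of 65.7%. Among the 167 regions, 131 had a window with no such repeated stretch, and their median density was 3.14. In 6 regions (Zfp959, Zfp97, Zfp951, Zfp937, Zfp345 and Zfp944) more than 50% of the window was repeated, and their median density was 2.04. In 8 regions with a repeated share above 0 and up to 50% it was lower, at 1.40, so density did not fall steadily with that share. The 22 regions without a window had a median of 3.71. Whether repeated sequence lowered the read numbers was not tested. The other regions of lowest density were Zfp808, Zfp65, Zfp759 and Zfp951. Zfp808 had 0.347 and 0.388 in the vehicle pair against 0.532 and 0.553 in the activin pair.

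Zfp start windows were covered by peaks more often than start windows in general. The RefSeq table held 370 windows of 307 Zfp genes. A called peak of any label lay over 297 and 298 of them in the vehicle libraries and over 301 and 297 in the activin libraries. The lowest and highest shares were 80.3% and 81.4%, so the libraries differed little, and the shares over all windows were 38.1% to 41.7%. In all 4 libraries 287 Zfp windows (77.6%) were covered, beside 35% of all 32851 windows, and 58 were covered in none. The 32851 windows belong to 27025 genes, against 21900 RefSeq protein-coding symbols. The comparison set is thus not limited to protein-coding genes and is not matched to the Zfp genes. Of the 312 covered in any library 92.0% were covered in all 4, beside 75.9% of all windows covered in any. Coverage in the activin pair alone occurred at Zfp536 and Zfp85, or 0.641%, beside 1.22% of all windows covered in any. Zfp536 nonetheless had a promoter peak in all 4 libraries, with a −log10 q of 21.7, 14.9, 28.5 and 23.2. Only the activin peaks reached its start window. At Zfp85 an exon-labelled peak of 1.64 was called in vehicle library 1, over the site of its promoter peak. Coverage in the vehicle pair alone occurred at none, beside 1.33%. Counted in this way, which was chosen after seeing the data and does not depend on the label, few Zfp starts differed between treatments.

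Covered Zfp windows had fewer CpG dinucleotides than other covered windows. The median was 16 CpG per 300-base window in Zfp windows covered in all 4 libraries, 8 in those covered in 1 to 3, and 5 in those covered in none. Over all windows covered in all 4 libraries it was 23. The GC content had the same order, with medians of 56.0% in covered Zfp windows, 46.7% in uncovered ones and 63.0% in all covered windows. As background, CpG-rich starts are usually unmethylated and open in most cell types.

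**Figure D4:**
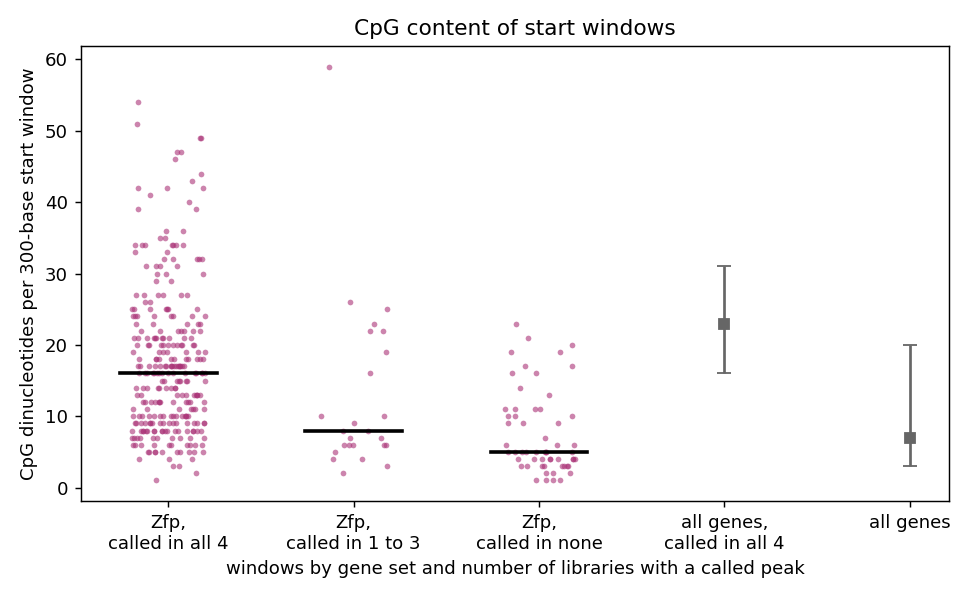
CpG dinucleotides per 300-base RefSeq start window. Points are Zfp windows by the number of libraries with a called peak, with black bars at their medians (16, 8 and 5); grey squares with bars are the median and quartiles over windows of all genes, covered in all 4 libraries (median 23) and in total (median 7).

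Motif content was counted in the same windows. They were searched on both strands for CCAAT (NF-Y), GGGCGG (SP/KLF), CCGGAAG (ETS), GCATGCGC (NRF1), TGACGTCA (CRE), TCTCGCGA (ZBTB33), AAGATGGCG (YY1), GTCTAGAC and CAGACA (SMAD), and TGANTCA (AP-1). No motif contains another. Among Zfp windows covered in all 4 libraries 48.4% held CCAAT, beside 38.2% of all covered windows. GGGCGG stood in 47.0% of them, beside 70.8%. CCGGAAG stood in 24.04%, beside 19.5%. The SMAD motif CAGACA, of interest because activin signals through SMAD proteins, stood in 18.8%, beside 14.1%, and AP-1 in 2.79%, beside 3.63%. The remaining motifs stood in fewer than 7% of covered Zfp windows, with NRF1 the most frequent at 6.27%, beside 6.05%. The match in letters is a description and does not show that a factor was bound.

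Zfp genes inside and outside clusters were set side by side. A cluster was at least 4 RefSeq Zfp genes with successive starts at most 250 kb apart. By this rule 157 of 372 Zfp genes stood in 20 clusters. A promoter peak in all 4 libraries was found at 62 clustered genes (39.5%) and at 86 of the other 215 (40.0%). With a limit of 100 kb the shares were 44.1% inside and 37.6% outside. Clustered start windows were covered in all 4 libraries in 81.0% of cases, beside 75%, and their median CpG number was 10, beside 17. In the comparison of densities 70 regions were clustered and 97 were not. Their median densities were 3.03 and 3.14, and their median log2 changes 0.02 and 0.04.

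The clusters differed among themselves. The densest and least dense promoter of a cluster were taken among its regions in the comparison of densities. The largest, with 19 genes on chromosome 13 (chr13:67038594-67827000), had 7 genes with a promoter peak in all 4 libraries. Its peaks were weak, with a median of 1.91 for the lowest −log10 q of each of these genes, and a median density of 1.43 at 6 regions. Zfp748 was its densest promoter, with 2.19 and 1.77 in the vehicle pair against 2.57 and 2.52 in the activin pair. Zfp65 was its least dense, with 0.541, 0.564, 0.521 and 0.559 in the same order, and the groups overlapped. The cluster of 18 genes on chromosome 17 (chr17:21383707-22456689) had 8 such genes, and all 19 of its start windows were covered in all 4 libraries. Zfp51 was its densest promoter, and Zfp944 its least dense, with 1.549 and 1.497 in the vehicle pair against 2.05 and 1.63 in the activin pair.

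On chromosome 7 a cluster of 15 genes (chr7:29768552-30169775) had 8 genes with a promoter peak in all libraries and all 15 windows covered. It holds Zfp568, which encodes a KRAB repressor of a placental Igf2 promoter, and which was its densest promoter, at 3.94 and 3.85 in the vehicle pair against 4.50 and 4.59 in the activin pair. Zfp383, the least dense of the 9 regions compared there, varied little, from 2.34 to 2.36. Zfp27 had lower densities of 1.15 and 1.90 at its activin promoter peaks, over whose site no vehicle peak was called, though its start windows were covered. In the cluster of 12 genes on the same chromosome (chr7:24081877-24587840) 4 genes were called throughout. Its densest promoter, Zfp428, had densities of 4.89, 5.38, 5.82 and 5.69, but carried the promoter label in activin library 1 alone. The second chromosome 17 cluster, of 11 genes (chr17:32765496-33631716), had 3 genes called throughout, with Zfp414 the densest and Zfp952 the least dense.

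The cluster of 9 genes on chromosome 4 (chr4:147124882-147849126) had few peaks. It had a promoter peak at 1 gene in all 4 libraries and at 8 genes in none, and 8 of its 9 start windows were covered in no library. A cluster of 4 genes on chromosome 7 (chr7:42473386-42692810) had no promoter peak at any gene, but a called peak of another label or gene lay over all 4 of its windows in all 4 libraries. No region of the chromosome 4 cluster entered the comparison of densities. A median of 35.4% of the 30-base stretches of its windows also stood in other windows, and its median CpG number was 5. Over all Zfp windows, more than 50% was repeated in 14 of the 58 uncovered ones (24.1%) and in 12 of the 287 covered in all 4 libraries (4.18%). Closed chromatin and reads that could not be placed cannot be told apart in such windows.

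**Figure D5:**
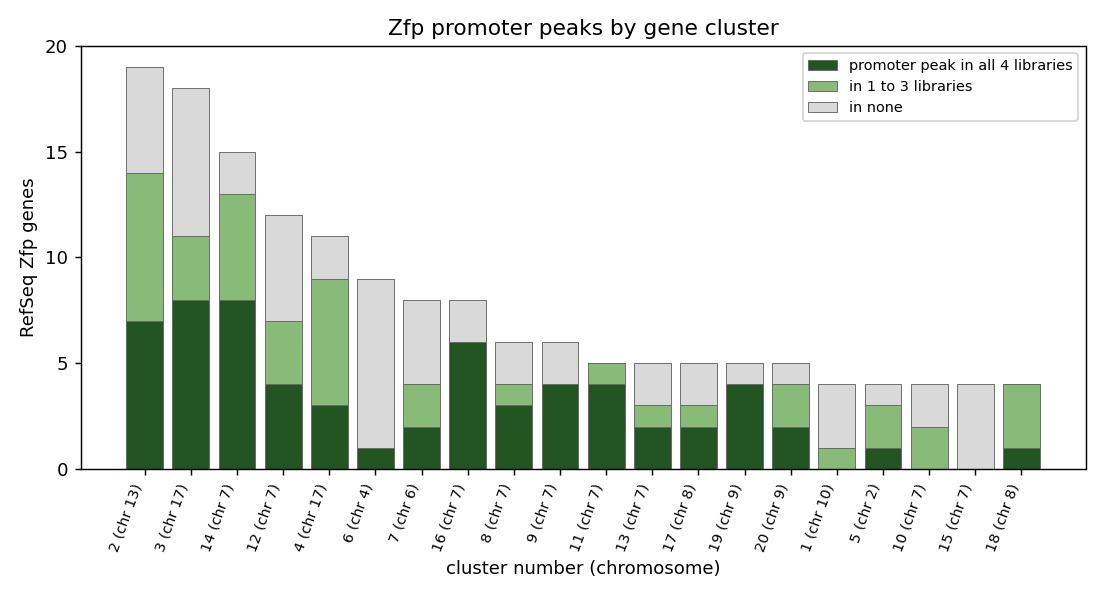
Number of RefSeq Zfp genes in each of the 20 clusters (bars, labelled by cluster number and chromosome), split by whether a promoter peak was found in all 4 libraries, in 1 to 3 or in none. Cluster 6 on chromosome 4 has 8 of 9 genes with none, while cluster 14 on chromosome 7 has 8 of 15 genes with a peak in all 4.

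Among general C2H2 regulators, 11 of 20 on the list (55%) had a promoter peak in all 4 libraries, beside 39.8% of the 372 RefSeq Zfp genes, 4 had one in some, and 5 (Zfp410, Zfp503, Zfp521, Zfp704 and Zfp91) in none. Of the 11 in the density comparison 0 passed the test and 2 had an unadjusted p under 0.05 (limma), and their median log2 change was 0.09, beside 0.03 over all promoter regions. At that p stood 3.62% of all regions on the higher and 5.91% on the lower side. The 2 were Zfp281 and Zfp143, both higher. Zfp217, a partner of CtBP co-repressor complexes, had a −log10 q of 19.1 and 17.0 in the vehicle pair against 21.5 and 16.9 in the activin pair, with overlapping groups and a log2 change of -0.20 (limma, adjusted p = 0.562).

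KRAB repressors of imprinted genes or retroelements ranged from strong promoter peaks to no peak with the promoter label. Of 10, 6 (60%) had a promoter peak in all 4 libraries, beside the same 39.8%, 2 had one in some, and Zfp445 and Zfp932 in none. The start windows of Zfp932 were nonetheless covered by a called peak in all 4 libraries, and that of Zfp445 in 3. Zfp809, which silences murine leukaemia proviruses through their primer binding site, had a −log10 q of 24.6 and 29.0 in the vehicle pair against 37.6 and 33.6 in the activin pair. Zfp568 had 16.3, 21.7, 34.4 and 23.3. Zfp57, which keeps imprints in early embryos, had no promoter peak in vehicle library 1 and weak ones in the others, at 1.68, 2.16 and 2.57. Of the 5 regions compared, 0 passed the test and 0 had an unadjusted p under 0.05 (limma), with a median log2 change of -0.05, beside 0.03 over all promoter regions.

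Members tied to SMAD signalling showed no called change. Zfp423, a SMAD partner in BMP signalling, had weak peaks, with a −log10 q of 1.67 and 3.17 in the vehicle pair against 5.51 and 3.97 in the activin pair, and a log2 density change of -0.01 (limma, adjusted p = 0.993). Zfp451, a SUMO ligase and SMAD co-repressor, had 17.8 and 13.1 in the vehicle pair against 29.5 and 19.7 in the activin pair. Its densities were 3.11, 2.64, 4.32 and 3.28, with both activin values higher before centring, and its log2 change was 0.12 (limma, adjusted p = 0.783). It was -0.042 without activin library 1 and 0.28 without activin library 2. Zfp521 had no promoter peak in any library.

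Of 19 genes of the KRAB co-repressor machinery, 7 (36.8%) had a promoter peak in all 4 libraries, 7 in some and 5 in none. Among the 21900 RefSeq protein-coding symbols the share in all 4 was 24.3%, where symbols that the annotation spells otherwise count as absent. Trim28, the co-repressor that KRAB domains bind, had a −log10 q of 8.29 and 11.9 in the vehicle pair against 15.98 and 10.9 in the activin pair, so the groups overlapped. Uhrf1, which brings DNA methyltransferase to replicated DNA, had the strongest peaks of this list, at 85.5, 67.0, 106 and 92.97. Of its 6 regions compared, 0 passed the test and 1, Cbx3, had an unadjusted p under 0.05 (limma), with a log2 change of 0.32 (adjusted p = 0.432), beside the 3.62% of all regions that were higher at that p.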

How the data were processed

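ATAC-seq of 4 libraries of LβT2b cells (cell line label LbT2) was analysed. Bowtie2, MACS2, HOMER and the builds GRCm38 and mm10 are named, without versions, per the submitters' processing notes. Each deposited peak list, made by the authors for a single library, gives a score, a fold ratio over background and −log10 p and q values. Scores equalled −log10 q times 10, cut to whole numbers, in 99.98% to 99.99% of each library's peaks. Peaks were annotated with annotatePeaks.pl, per the file headers. Read numbers per autosomal peak come from ataqv 1.3.1, per the file headers; the authors' reports do not form a count table, so no count model was used, and reads are not independent molecules.

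Overlapping peaks (1 bp) were merged. Regions with 1 peak of each library and a common part of at least 50% entered limma 3.58.1 (R 4.3.3) as log2 of (reads + 1) per kb, median-centred, with a trend. Fold changes on that scale understate changes at regions with few reads. The fit was first tested on simulated data. Named promoters were those with the smallest p (5 per direction), the highest and lowest density (5 each), the 8 highest −log10 q ranks, those restricted to a treatment, extremes of the largest clusters, and the lists given. The members and lists were chosen with earlier results of these data known. Of the 233 genes 231 matched RefSeq symbols. Protein features were not analysed here.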

Additional observations from a re-analysis of the deposited data

How the results depend on the processing

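Under the alternatives run, no Zfp promoter region passed limma's threshold except when densities were scaled to all high-quality reads, where 8 did. The median log2 change, 0.03, was 0.019 with a pseudocount of 10 reads, 0.019 without division by length, 0.30 scaled to all high-quality reads, -0.013 with a common part of at least 80% (46 regions), and 0.011 to 0.038 with single libraries left out. The replicate numbers were not shown to pair the libraries (deviations from the group means correlated at -0.0252 over 13871 regions); with the replicate number as a block, 0 Zfp regions and 4 of all regions passed, the Zfp median stayed at 0.03, and an unadjusted p under 0.05 was reached by 6 Zfp regions on the higher and 6 on the lower side. That number of higher regions, 8, was 5 without activin library 2.

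The difference in Zfp genes with a promoter peak ranged from -3 to 5 with single libraries left out. It was 12 at a −log10 q of at least 2 and 7.5 with equal numbers of peaks per library. The difference in their share of promoter peaks was -0.00708 percentage points with equal numbers of peaks per library and ranged from -0.0238 to 0.369 with single libraries left out. Genes restricted to the vehicle pair numbered 5 at a −log10 q of at least 2 and 2 at one of at least 5, and 10 to 17 with single libraries left out; genes restricted to the activin pair then numbered 14 to 18. Of 14 promoters followed singly under 130 alternatives in all, 119 values kept direction and side of the threshold, though Zfp41, Zfp952 and Zfp622 came close to 0 without division by length (-0.0098, -0.026 and 0.037), 5 passed when scaled to all high-quality reads (Zfp51, Zfp281, Zfp444, Zfp599 and Zfp622, with log2 changes of 0.64, 0.68, 0.60, 0.59 and 0.54), and 6 reversed. Without division by length Zfp281 was -0.018, Zfp444 -0.094, Zfp599 -0.082, Zfp946 0.026 and Zfp536 0.28; without activin library 1 Zfp451 was -0.042. The causes were not tested. With clusters joined at 100 or 500 kb they held 127 or 189 genes, against 157, and the shares with a promoter peak in all 4 libraries were 44.1% inside against 37.6% outside, or 38.6% against 41.0%. With a common part of at least 80%, Zfp574 and Zfp174 were 0.021 and 0.0092, from 0.11 and 0.10. Scaling to all high-quality reads put p under 0.05 before adjustment at 63 Zfp regions with a positive and 0 with a negative change.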

Other observations

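Other zinc finger families, set beside the Zfp genes, had a promoter peak in all 4 libraries at shares of 50% to 62.5%. Among genes with a promoter peak in any library, 20 of 32 Zbtb genes (62.5%) had one in all 4, beside 149 of 233 Zfp genes (63.9%). Zbtb genes encode BTB-domain zinc finger repressors. The Zscan and Zkscan genes, whose proteins carry a SCAN domain, had one in all 4 at 9 of 15 (60%). Of the Klf genes, which encode SP-like activators and repressors, 5 of 10 (50%) did. Over all 15603 genes with a promoter peak in any library the share was 44.9%. In the limma comparison of densities 0 of 25 Zbtb, 0 of 7 Zscan and Zkscan and 0 of 7 Klf regions passed an adjusted p of 0.05, and 2, 0 and 0 had an unadjusted p under 0.05. The median log2 changes were 0.03, -0.00 and 0.08.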
